A study of Homo sapiens with 12 samples.

Results

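The module examined here holds the nuclear genes whose counts were lower in every doxycycline library of the SK-N-DZ series than in every library without the drug. Members were chosen from CPM values, each a count scaled by the total of its library, by 3 conditions: the highest of the 6 doxycycline values lay below the lowest of the 6 others, the mean of those 6 others was at least 2 CPM, and the ratio of the 2 means was at most 0.75. Genes of the mitochondrial chromosome, their nuclear copies, PKIA and LINC-named transcripts were left out. The rule kept 176 of 43769 genes. Before the exclusions it took 193 of the 12792 genes with at least 2 CPM, or 1.51% of them, and 17 of the 193 were then removed. The doxycycline values chose the members, so those values are given below as a description and no test of them is used as support. The doxycycline contrast was run over all genes only to count calls in lists of general function.

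SK-N-DZ is a human neuroblastoma line with MYCN amplification. The cells sequenced were a clonal derivative carrying a hairpin against ARID1A in the doxycycline-inducible vector Tet-pLKO-puro, and 4 groups of 3 libraries were made. Group C had neither agent and I had interferon gamma (IFNγ) for 24 h, and both carry the genotype label WT. Group D had doxycycline for 4 days and DI had doxycycline and IFNγ, and both carry the label shARID1A. The vector was present in all 4 groups, no library had doxycycline without the hairpin, and the line is 1 clone, so the drug, the hairpin and a loss of ARID1A cannot be told apart. The labels do not say whether the libraries of a group came from separate cultures, so p-values measure only the spread between these samples. In bulk RNA, fewer cells of a type and less RNA per cell cannot be told apart either.

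ARID1A is a DNA-binding subunit of the SWI/SNF chromatin remodelling complex, which moves nucleosomes at promoters and enhancers. A hairpin RNA is cut in the cell to a short RNA that is loaded into an Argonaute protein and guides it to mRNAs by base pairing. The 3′ untranslated region (3′ UTR), the part of an mRNA after the stop codon, is where microRNAs and many RNA-binding proteins attach and where mRNA stability is often set.

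Total counts ran from 16469832 to 21790869 a library. ARID1A itself (ENSG00000117713) had 192, 186 and 160.4 CPM in C and 184, 193 and 184 in I, against 203, 169 and 164 in D and 153, 136 and 151 in DI. Library D1 lay above all 3 control libraries, while the 3 DI libraries lay below the 3 I libraries. Its log2 fold change was −0.09 (SE 0.11, adjusted p = 0.788) in D vs C and −0.44 (SE 0.11, adjusted p = 0.115) in DI vs I by edgeR's quasi-likelihood test with Benjamini-Hochberg adjustment. With the replicate number as a block the second value passed the threshold (−0.45, adjusted p = 0.0111). The groups are therefore named by their labels. All 10 adrenergic neuroblastoma markers were at 2 CPM or more, with a summed level of 4563 to 5826 CPM in every library. The member STMN2 is among these markers, and the sum does not show changes of single markers. Markers of immune, endothelial, erythroid and epithelial cells summed to at most 3.14 CPM, and 8 mesenchymal markers to between 75.3 and 318 CPM, with the groups overlapping. The 5 Schwann cell markers summed to between 4.68 and 7.04 CPM in C and between 5.21 and 10.5 in I; the sums in D lay between 1.71 and 3.37 and those in DI between 3.004 and 6.84 CPM, with S100B, SOX10 and CDH19 under 0.2 CPM on average. Their part in the values below was not tested.

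A short sequence in the 3′ UTR, which the rule did not use, was more frequent among members than among all genes. For 168 members and for 11694 protein-coding genes of at least 2 CPM in all, the 3′ UTR of 1 transcript a gene was read from GENCODE release 29, and all 16384 heptamers were ranked by the difference between the share of members and the share of all genes that held them. The heptamer ACTCATT ranked 1. It stood in 81 of 168 members (48.2%, 95% Wilson interval 40.8 to 55.7) and in 1472 of 11694 genes (12.6%). ACTCATT was picked from 16384 heptamers in these members, so its share is favoured by that choice, which the interval does not cover. The heptamer CTCATTA, which overlaps it by 6 bases, ranked 2 (41.1% of members, 10.01% of genes). Their common core of 6 bases, CTCATT, was found in 129 members (76.8%) and in 37.9% of all genes. The windows below show the whole 8-base match in the 3′ UTRs of members with some of the lowest ratios, high levels or roles in mitosis, with the matched bases in capitals and the mRNA strand written 5′ to 3′ as DNA.
ANAPC11 (GRCh38 chr17:81900221-81900250, plus strand): aataagtgaaaACTCATTAaactactcaaa
CNR1 (GRCh38 chr6:88141170-88141199, minus strand): ccaatgaatatACTCATTAgaattaccatt
CNR1 (GRCh38 chr6:88141141-88141170, minus strand): ttgttaatatcACTCATTAattaaccccat
GNPDA1 (GRCh38 chr5:142001228-142001257, minus strand): ctgttttacatACTCATTAgtaagtgggag
TMEM167B (GRCh38 chr1:109096677-109096706, plus strand): aaacttgtttaACTCATTActttgtttgat
RAB11FIP2 (GRCh38 chr10:118006673-118006702, minus strand): tgtgaattttcACTCATTAcctagagtaaa
MFSD6 (GRCh38 chr2:190500336-190500365, plus strand): taaatatctaaACTCATTAacatggaaaca
ATF2 (GRCh38 chr2:175074560-175074589, minus strand): cagttttagatACTCATTAgtgacttcaaa
RACGAP1 (GRCh38 chr12:49990169-49990198, minus strand): cagcctcctgtACTCATTActacttttagc
BUB1B (GRCh38 chr15:40220977-40221006, plus strand): attctaaacagACTCATTAcaaatggttac
WEE1 (GRCh38 chr11:9588978-9589007, plus strand): catgctaaaagACTCATTActactcagcct
ARPP19 (GRCh38 chr15:52549823-52549852, minus strand): agcaagtatatACTCATTAtagaatcaatt
ARPP19 (GRCh38 chr15:52547863-52547892, minus strand): ccattgatggcACTCATTAaattgtattta
ARL6IP1 (GRCh38 chr16:18793013-18793042, minus strand): cttcatggacaACTCATTAgtgttttgact
BEX1 (GRCh38 chrX:103062672-103062701, minus strand): atggaaagatgCTCATTAtagtgaagttaa
STARD4 (GRCh38 chr5:111497441-111497470, minus strand): cattttaagtgCTCATTAgccacatgaggc
BEX1 and STARD4, the last of these, carry only the 7 bases CTCATTA. CNR1 and ARPP19 each carry the 8-base match at 2 places.

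Longer matches went with a larger share of members. The classes were built from the heptamer that ranked 1 in these same members, so this order was in part favoured by that choice. Among genes whose longest 3′ UTR match was the 8 bases ACTCATTA, 35 of 317 (11.0%) were members. The share was 46 of 1155 (3.98%) for ACTCATT without the final A, 27 of 656 (4.12%) for CTCATTA without the first A, 21 of 2301 (0.913%) for the core alone and 39 of 7265 (0.537%) for genes without the core. By number, 0.537% of genes with no core match, 2.06% with 1 and 4.46% with 2 were members, and the share did not rise further with 3 (3.25%) or with 4 or more (3.94%). Among members, the core was about as frequent at ratios under 0.5 (23 of 31) as at 0.7 and above (28 of 38).

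Elsewhere in the mRNA the same heptamer ranked lower. It was picked for the highest rank in 3′ UTRs, so it could not rank higher elsewhere. The other heptamers compared below could not exceed its difference in 3′ UTRs either, and nothing is read from these orders. In coding sequences ACTCATT ranked 78 of 16384, at 10.1% of members and 7.27% of genes. Per kilobase it occurred there 0.123 times in members and 0.0456 times in other genes. In 5′ UTRs it ranked 1599, at 1.79% and 0.778%. The heptamer occurred 0.273 times per kilobase of 3′ UTR in members and 0.0784 times in other genes. Members also had longer 3′ UTRs (median 1598 against 1187 bases over all genes) of lower GC content (37.4% against 42.0%). Within each class of 3′ UTR length the members' share stayed above that of all genes, from 15.2% against 1.48% below 500 bases to 73.9% against 43.0% at 4000 bases and more. The reverse complement AATGAGT, which reads the other strand, was in 13.7% of members and 12.4% of genes. Of the 208 other heptamers made of the same letters and lacking the core, the one with the largest difference was TACTCAT, at 24.4% and 9.005%, which overlaps ACTCATT by 6 bases. Of 2370 distinct mature human miRNAs in the RefSeq table (GRCh38.p14), 0 have a seed, bases 2 to 8, that is complementary to the heptamer. Seeds that pair with CTCATTA or with the core alone were not looked up, and pairing of miRNAs with the members was not tested.

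ARID1A holds the heptamer once in its coding sequence and not in its 3′ UTR. It begins at base 6804 of 6855 coding bases, shown here with the match in capitals for comparison with the windows above.
ARID1A (GRCh38 chr1:26780690-26780719, plus strand): accgttgatgaACTCATTggtttcacaagt
The sequence of the hairpin was not used here, and whether it covers this stretch or pairs with the members' 3′ UTRs was not tested. A match in the coding sequence is not particular to ARID1A. It was found in 7.27% of genes, at 0.0456 times per kilobase in genes outside the module.

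**Figure D1:**
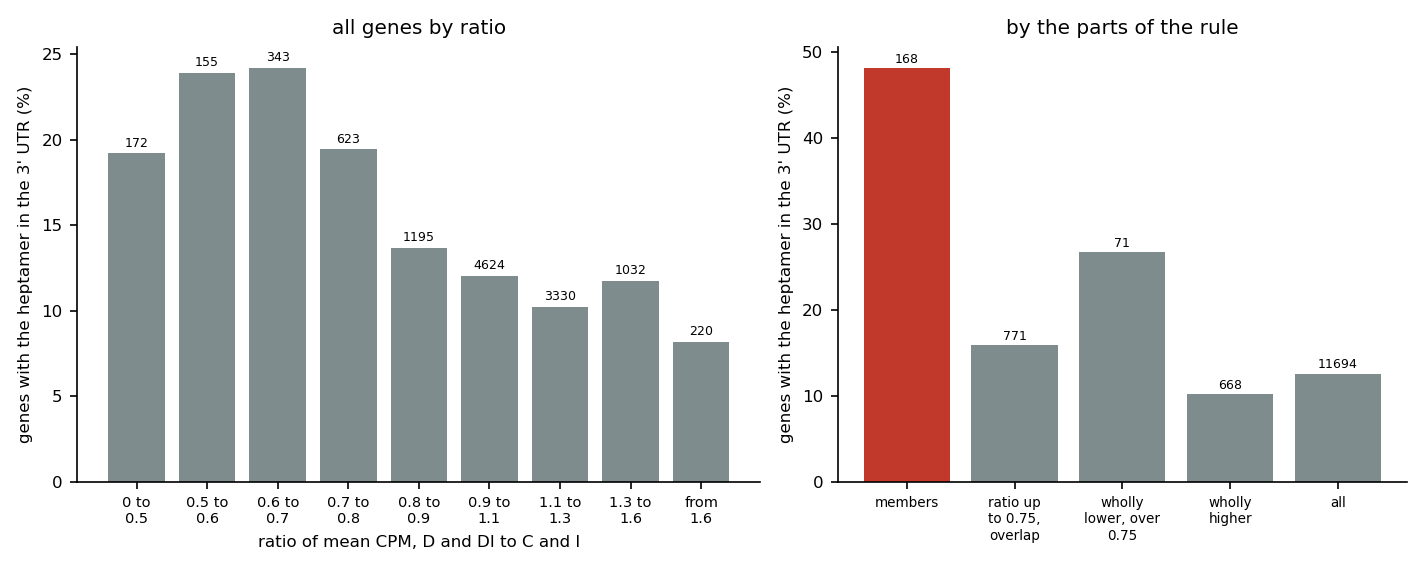
Share of protein-coding genes of at least 2 CPM with ACTCATT in the 3′ UTR, in percent, by the ratio of mean CPM in D and DI to that in C and I (left) and by the parts of the rule (right), with the number of genes above each bar. The 168 members stand at 48.2%, genes of as low a ratio whose groups overlap at 16.0%, and genes wholly higher in D and DI at 10.2%.

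The heptamer was more frequent among members than among other genes of as low a ratio. It was picked for its frequency in these members, which favours them in this comparison. Of 771 genes with a ratio of at most 0.75 whose groups overlapped, 16.0% held it, against 48.2% of members at similar ratios. Of 71 genes that were lower in every doxycycline library but by less than the ratio required, 26.8% held it. Of 668 genes that were higher in every doxycycline library, 10.2% held it. Over all genes, members included, the share was 19.2% at ratios under 0.5, 23.9% at 0.5 to 0.6 and 24.2% at 0.6 to 0.7. It was 10.2% at 1.1 to 1.3, 11.7% at 1.3 to 1.6 and 8.18% at 1.6 and above. Genes outside the module with the 8-base match had a median log2 ratio of 0.01, against 0.07 for genes outside it without the core, and 282 of the 317 genes with that match were not members. By same-numbered pair the first median ran from −0.06 to 0.07 and the second from 0.06 to 0.10, and in D1 to C1 both were 0.07. Shorter matches did not all lie below the genes without the core. Outside the module the median was 0.05 for ACTCATT without the final A and 0.08 for CTCATTA without the first A. It was 0.09 for the core alone. The plot of cumulative shares by match shows the classes in both sets.

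**Figure D2:**
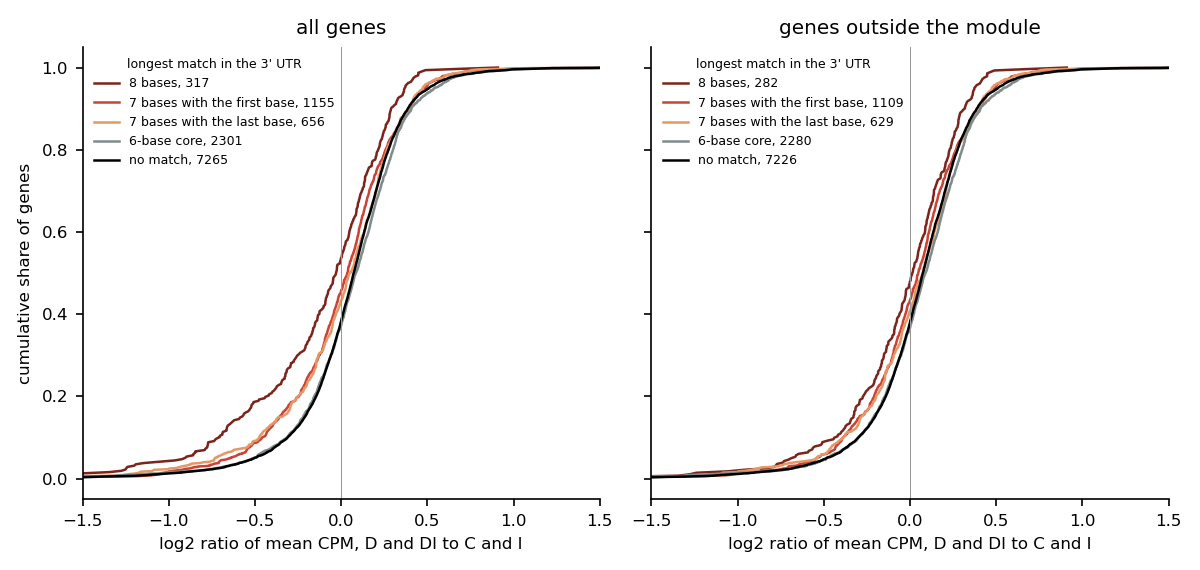
Cumulative share of genes by log2 ratio of mean CPM, D and DI to C and I, for 5 classes of the longest match in the 3′ UTR, over all genes (left) and over genes outside the module (right). The line of the 8-base match lies farthest left in both panels, with a median of −0.03 over all genes and 0.01 outside the module.

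The rule required both arms to be lower, and the ratios of each arm are given as a description. The ratio of means ran from 0.262 to 0.749 with a median of 0.625, and 33 members were under 0.5, 35 from 0.5 to 0.6, 69 from 0.6 to 0.7 and 39 at 0.7 or above. The median was 0.636 for D to C and 0.629 for DI to I. Between same-numbered libraries the medians were 0.656, 0.623 and 0.613 for D to C and 0.650, 0.629 and 0.597 for DI to I (replicates 1, 2 and 3). Together the members took 1.73 to 1.93% of all counts in C, 1.75 to 2.03% in I, 1.14 to 1.16% in D and 1.17 to 1.21% in DI. Their mean level in C and I ran from 2.03 to 3162 CPM, with a median of 42.7 CPM. In the plot of ratio against level the members are found along the whole range of levels.

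**Figure D3:**
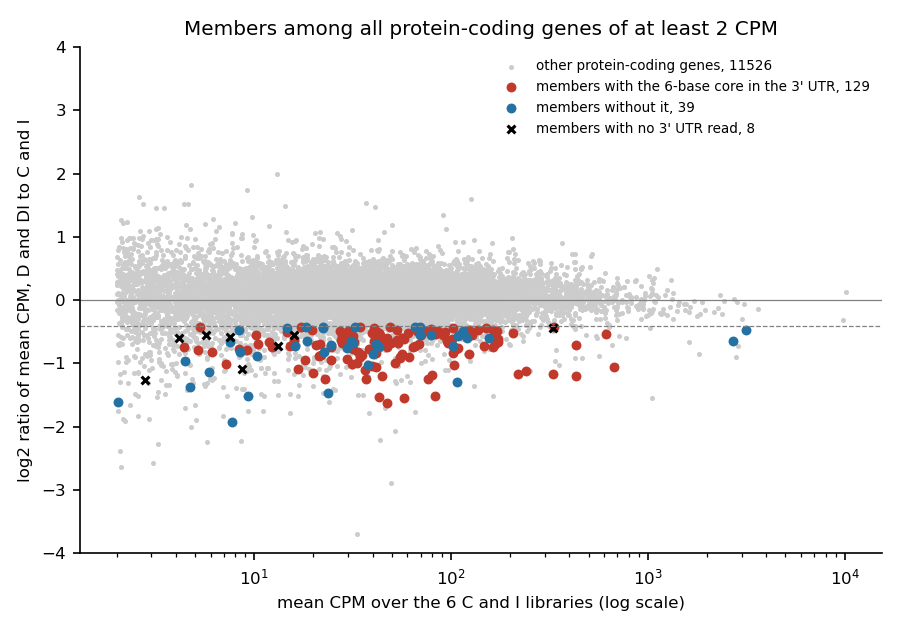
Log2 ratio of mean CPM (D and DI to C and I) against the mean CPM of the 6 C and I libraries on a log axis, for 11526 other protein-coding genes (grey) and the 176 members. Red points are the 129 members with the core in the 3′ UTR, blue points the 39 without it, and crosses the 8 whose 3′ UTR was not read. The dashed line marks the ratio of 0.75.

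Choosing genes in 2 replicate numbers and reading them in the remaining number gave values that the choice did not use. With number 1 left out, the rule took 296 genes, of which 279 (94.3%) were lower in both doxycycline libraries of number 1, against 30.7% of all genes, at a median ratio of 0.681. With number 3 left out, 269 of 290 (92.8%) were lower in both, at a median ratio of 0.645, against 31.1% of all genes. With number 2 left out the rule took 752 genes, and 339 (45.1%) were lower in both, against 30.3% of all genes, at a median ratio of 0.985. The genes chosen from numbers 1 and 3 thus had a median ratio near 1 in number 2. The core was picked in members chosen from all replicate numbers, so splits by the core reuse the values left out. Members made up 170 of the 296 genes, 162 of the 752 and 162 of the 290. The splits are therefore a description. Among these 752, the 302 with the core in the 3′ UTR had a median ratio of 0.8002 in number 2 and 42.7% were at 0.75 or below, while the 387 without it had a median of 1.06 and 13.95% at 0.75 or below. With number 1 left out, the chosen genes had median ratios in it of 0.677 with the core and 0.707 without the core, and with number 3 left out the order was the opposite, with 0.655 (74.5% at 0.75 or below) with the core and 0.599 (78.1%) without the core. Members without the core also varied more from pair to pair. Over the 6 same-numbered pairs the median log2 range was 0.69 in 39 members without the core and 0.48 in 129 with it. These ranges come from the values the rule used, in the members that gave the core, and were not adjusted for level. The widest were in the weakly counted KRT17 (4.31) and CFAP95 (3.64), both without the core. In pairs of number 2 the members without the core had median ratios of 0.691 (D to C) and 0.692 (DI to I), and in pairs of number 3 they had 0.559 and 0.545.

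The groups of genes that follow were put together by function after the members were known, and they describe the list without a test. The first group holds genes known from neurons, picked one by one. Lists for synaptic vesicle release (28 tested genes), axon guidance and adhesion (72), ion channels (44) and neurotransmitter receptors (32) included 0 members. CNR1, the cannabinoid receptor of presynaptic terminals (ENSG00000118432, chromosome 6, 88139864 to 88166359, minus strand), had 39.3, 42.6 and 26.2 CPM in C and 63.8, 54.95 and 32.5 in I, against 15.9, 14.8 and 11.6 in D and 18.2, 16.5 and 13.1 in DI, at a ratio of 0.348. BEX1, a small X-linked adaptor protein of neurons (ENSG00000133169, chromosome X, 103062651 to 103064240, minus strand), had 49.8, 52.5 and 51.8 CPM in C and 45.7, 44.4 and 40.8 in I, against 18.4, 13.2 and 16.8 in D and 18.6, 12.1 and 13.4 in DI, and no doxycycline library came near the others, at a ratio of 0.325. STMN2, a tubulin-binding protein of growing axons, had 438, 369 and 449 CPM in C and 406, 415 and 516 in I, against 139, 206 and 171 in D and 176, 236 and 206 in DI, at a ratio of 0.438, and its 3′ UTR holds the 8-base match. The groups of all 3 genes were far apart, and replicate 3 had the least CNR1 in each group.

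Other members known from neurons were the secreted synaptic organizer C1QL1 at a ratio of 0.41, the synapse-forming adhesion protein SLITRK5 at 0.538, the synuclein SNCG at 0.552, the auxiliary kainate receptor subunit NETO2 at 0.592, the ciliary neurotrophic factor receptor CNTFR at 0.609, the microtubule stabilizer MAP6 at 0.663, the intracellular fibroblast growth factor FGF13 at 0.683 and the endosomal protein NSG1 at 0.656. SLITRK5 holds the 8-base match, NETO2, FGF13 and NSG1 hold ACTCATT and CNTFR holds CTCATTA. C1QL1, SNCG and MAP6 hold none. SNCG had 52.2, 42.3 and 36.4 CPM in C and 36.6, 38.3 and 34.3 in I, against 23.3, 33.97 and 11.3 in D and 21.6, 33.99 and 8.26 in DI, and in this gene the number 2 libraries with doxycycline nearly reached the lowest library without it. CNTFR behaved alike, with 129 CPM in D2 against 131 CPM in I1.

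The second group acts in mitosis and the cell cycle. ANAPC11, the RING subunit of the anaphase-promoting complex (ENSG00000141552, chromosome 17, 81890790 to 81900991, plus strand), had 53.97, 56.6 and 71.9 CPM in C and 52.9, 45.3 and 65.97 in I, against 19.3, 16.5 and 24.01 in D and 19.7, 16.4 and 23.3 in DI, at a ratio of 0.344. All 6 doxycycline libraries were far below the others. Its neighbour NPB overlaps it on the same strand, so a part of its reads could belong there. The spindle checkpoint kinase BUB1B had 173, 170.2 and 192 CPM in C and 164, 150.1 and 158 in I, against 126, 109 and 122 in D and 115, 104 and 121 in DI, at a ratio of 0.691. Its checkpoint partner MAD2L1 had a ratio of 0.715, the cytokinesis protein RACGAP1 0.622, the kinase WEE1, which holds back entry into mitosis, 0.697, the separase inhibitor PTTG1 0.678 and the transcription factor E2F5 0.632. The 8-base match was in the 3′ UTR of ANAPC11, BUB1B, RACGAP1, WEE1 and E2F5, MAD2L1 held the core alone, and PTTG1 held none. Over all members with a 3′ UTR read, 20.8% held the 8-base match. The genes of this group were picked by hand and are not a full list, so their matches do not describe mitosis genes.

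SUMO2, a small ubiquitin-like protein that is attached to other proteins, lay just inside the rule at a ratio of 0.749, and the protease SENP2, which can take it off again, had 0.643. SENP2 holds the 8-base match and SUMO2 the core alone. SUMO2 overlaps JPT1 on its strand.

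Proteins of the endoplasmic reticulum formed a further group. TMBIM6, a membrane protein that limits cell death, had 321, 337 and 316 CPM in C and 344, 338 and 318 in I, against 162, 141 and 130.04 in D and 175, 139 and 134 in DI, at a ratio of 0.446, with no library near the other set. The chaperone partner DNAJB9 had a ratio of 0.538, the selenoprotein SELENOK 0.52, and DERL1 and UBXN4, which act in the removal of misfolded proteins, 0.681 and 0.634. All 5 hold at least 7 matched bases in the 3′ UTR. They were picked by hand and are not a full list, so this count does not describe the reticulum. Among all members with a 3′ UTR read, the longest match was the 8-base match in 20.8%, ACTCATT in 27.4% and CTCATTA in 16.1%. ARL6IP1, which shapes the tubules of the reticulum, had 549, 639 and 606 CPM in C and 647, 614 and 635 in I, against 440.1, 402 and 373 in D and 476, 438 and 413 in DI, at a ratio of 0.689.

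Several members belong to signaling by cyclic AMP and protein kinase A or to its phosphatase branch. PRKAR1A, a regulatory subunit of the kinase, had 192, 222 and 176 CPM in C and 221, 242 and 189 in I, against 149, 148 and 114 in D and 153, 174 and 130.2 in DI, at a ratio of 0.699. The anchoring protein AKAP11 had 0.682 and the anchoring protein GSKIP 0.521. ARPP19, a phosphatase inhibitor switched on in mitosis, had 405, 442 and 454 CPM in C and 420.1, 433 and 429 in I, against 268, 244 and 271 in D and 265, 262 and 276 in DI, at a ratio of 0.614, with libraries of a group within a narrow range. ATF2, a transcription factor that binds cyclic AMP response elements, had a ratio of 0.556.

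Members with a role in chromatin were few. ACTL6B, the neuronal actin-related subunit of SWI/SNF, had 42.8, 57.2 and 57.7 CPM in C and 43.7, 63.03 and 57.9 in I, against 28.03, 35.1 and 35.5 in D and 34.8, 35.4 and 32.1 in DI, at a ratio of 0.623. Replicate 1 was the lowest in C, D and I. DNMT3B, a DNA methyltransferase, had 42.9, 30.8 and 39.5 CPM in C and 50.4, 36.8 and 48.9 in I, against 23.7, 15.8 and 24.4 in D and 27.7, 18.4 and 29.8 in DI, at a ratio of 0.561, and its lowest library without the drug, C2, was close to its highest with it, DI3. DNMT3B holds the core alone and ACTL6B CTCATTA.

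**Figure D4:**
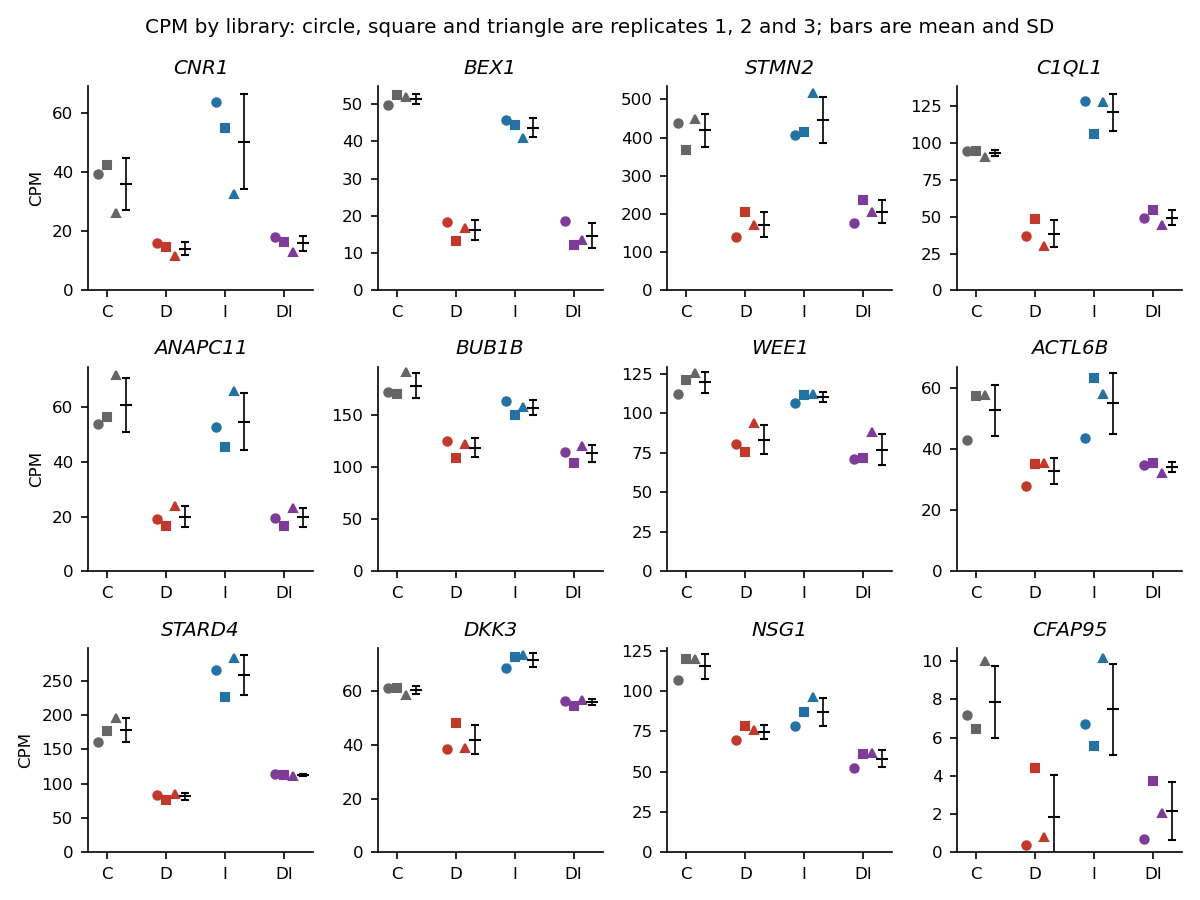
CPM of 12 members in each library, with circles, squares and triangles for replicates 1, 2 and 3 and a bar for the mean and SD of 3 libraries beside them. In each panel all D and DI libraries lie below all C and I libraries, which the rule required. CFAP95 had 4.40 and 3.73 CPM in D2 and DI2 and at most 2.07 CPM in the other doxycycline libraries.

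Metabolic enzymes and highly counted genes were among the members too. GNPDA1, which turns glucosamine 6-phosphate back into a sugar phosphate (ENSG00000113552, chromosome 5, 141991749 to 142013041, minus strand), had 80.7, 80.3 and 81.3 CPM in C and 94.8, 81.4 and 78.02 in I, against 33.98, 24.3 and 27.98 in D and 38.2, 21.1 and 29.3 in DI, at a ratio of 0.352. STARD4, a carrier of cholesterol between membranes, had 161, 177 and 196 CPM in C and 265, 226 and 283 in I, against 84.1, 75.9 and 85.7 in D and 114, 112 and 111 in DI, at a ratio of 0.446. The member with the most counts was the alpha-tubulin TUBA1A, with 2900.5, 2888 and 3596 CPM in C and 2999.5, 2561 and 4026 in I, against 2477, 1969 and 2333 in D and 2545, 1928 and 2469 in DI, at a ratio of 0.723, where D and DI libraries of number 1 came close to I2. PKM, a pyruvate kinase of glycolysis, had 2436, 2422 and 3140.3 CPM in C and 2425, 2503 and 3394 in I, against 1416, 2086 and 1585 in D and 1317, 2365 and 1638 in DI, at a ratio of 0.638, and DI2 was near the lowest library without the drug. NREP, a small neuronal regeneration protein, had 569, 641 and 457 CPM in C and 863, 796 and 694 in I, against 320.4, 365 and 211 in D and 375, 407 and 253 in DI, at a ratio of 0.481. Neither TUBA1A nor PKM holds the core in the 3′ UTR, and NREP holds ACTCATT.

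Some of the lowest ratios belonged to weakly counted genes without the core. CFAP95, a ciliary protein, had 7.2, 6.45 and 10.02 CPM in C and 6.73, 5.57 and 10.2 in I, against 0.393, 4.4 and 0.782 in D and 0.725, 3.73 and 2.07 in DI, at the lowest ratio of all, 0.262. The adhesion protein CNTNAP3 had 11.8, 5.31 and 10.02 CPM in C and 10.9, 5.37 and 12.2 in I, against 3.39, 4.07 and 1.68 in D and 2.49, 4.89 and 2.94 in DI, at 0.35. LOXL1, which crosslinks elastin, had 15.4, 25.5 and 28.2 CPM in C and 13.7, 25.8 and 33.3 in I, against 5.26, 12.1 and 11.01 in D and 3.94, 10.5 and 8.72 in DI, at 0.362, and was lowest in replicate 1 of each group. KRT17, an epithelial keratin, had 1.19 to 2.94 CPM without doxycycline and 0.0525 to 1.03 CPM with it, at 0.329. GCOM1 (0.385) and MYZAP (0.453) share exons on 1 strand, so they may be 1 signal counted as 2. ANXA2P2 (0.416) is a processed pseudogene of ANXA2, so reads of the parent gene may be counted on it.

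Of the 176 members, 169 are protein-coding, 2 are processed pseudogenes (ANXA2P2 and EEF1A1P5), 2 unprocessed pseudogenes, 2 antisense transcripts and 1 a ribosomal RNA pseudogene. An annotated exon of another gene lies over 21 members on the same strand and over 42 on the opposite strand. Whether the counting used strand is not given in the sources used here, so the reads of those members are uncertain. The share of genes at 2 CPM or more that were members ran from 0 of 185 on chromosome 18 and 0 of 114 on chromosome 21 to 6 of 227 (2.64%) on chromosome 13.

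Lists of general function held few members. In the model of all tested genes, 4.02% of 15828 genes were called lower and 3.66% higher when both doxycycline groups were compared with both others (edgeR, adjusted p under 0.05), a contrast the rule used. The cytoskeleton list had 3 members (STMN2, MAP6 and TUBA1A) and 7 of 45 tested genes called lower, 4 of them outside the module. The mitosis list had 2 members (BUB1B and MAD2L1) and 5 of 46 called lower, 3 of them outside the module. The protein kinase A list had 2 members (AKAP11 and PRKAR1A) and 4 of 42 called lower, 2 of them outside. The WNT list had 2 members (the receptor FZD6 and the secreted protein DKK3) and 2 of 35 called lower, 0 of them outside. One member each stood in the lists of the respiratory chain (COX7C), cholesterol synthesis (STARD4), SWI/SNF (ACTL6B), chromatin modifiers (DNMT3B), TGF-beta and BMP signaling (BAMBI, a decoy receptor) and receptor tyrosine kinases (FGF13). Members were chosen on this contrast, so their own calls were favoured by the rule. Outside the module, 4 genes of the respiratory chain list were called lower, and 0 in the lists of the other members just named. In the SWI/SNF and chromatin lists 3 of 28 and 12 of 47 genes were called higher, and 6 and 16 by library size alone. The 77 cytosolic ribosomal proteins, 43 interferon response genes and 20 catecholamine genes included 0 members, with 12, 4 and 3 called lower, or 1, 3 and 3 by library size alone. A gene strongly raised by IFNγ could not meet the rule, so the absence of interferon response genes was fixed by it.

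Few members were called for IFNγ. The rule bears on this comparison as well, since every DI library had to lie below every C library and every D library below every I library, so a gene whose change with IFNγ exceeded its change with doxycycline could not be a member. The shares of all genes are therefore printed beside the members' counts and nothing is read from the difference. Comparing both IFNγ groups with both groups lacking it (their means), 2 of 176 members were called higher and 1 lower (edgeR, adjusted p under 0.05), against 3.41% and 0.398% of all 15828 tested genes. The median log2 fold change of the members was 0.05, with 113 above 0, against −0.01 over all genes. In I vs C 1 member was called higher (2.1% of all genes) and 0 lower (0.114%), with 11 at an unadjusted p under 0.05. In DI vs D 1 was called higher (1.67% of all genes) and 0 lower (0.0505%), with 10 at an unadjusted p under 0.05. With the replicate number as a block the counts rose to 12 higher and 2 lower for the mean (7.32% and 3.57% of all genes), 4 and 1 in I vs C (4.88% and 1.14%) and 3 and 1 in DI vs D (3.77% and 0.695%). The members called higher for the mean with the block were STARD4, DKK3, C1QL1, CHURC1, CNR1, DNMT3B, H3C6, MOB1A, NREP, PRKAR1A, RHOC and UBXN4, and those called lower were NSG1 and WDHD1. In I vs C the block called STARD4, CNR1 (log2 fold change 0.51, adjusted p = 0.0238), NREP (0.55, adjusted p = 0.00654) and UBXN4 (0.35, adjusted p = 0.0310) higher and NSG1 lower, and in DI vs D it called STARD4, DKK3 and RHOC (0.49, adjusted p = 0.0207) higher and NSG1 lower.

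STARD4 had the lowest adjusted p of the members for the mean, and its libraries given above were higher in I than in C and higher in DI than in D without overlap. The log2 fold change was 0.54 (SE 0.08, adjusted p = 0.00165, edgeR) for the mean, 0.58 (SE 0.11, adjusted p = 0.0161) in I vs C and 0.49 (SE 0.11, adjusted p = 0.0548) in DI vs D, so the rise in the doxycycline arm missed the threshold by the main test and passed with the block (adjusted p = 0.00557). The call in I vs C was lost without C1, C2, I1 or I3, with adjusted p from 0.0807 to 0.115. The level in DI, 112 ± 1.57 CPM (SD, n = 3), stayed below that in C, 178 ± 17.4. Exons of STARD4-AS1 overlap STARD4 and NREP on the opposite strand, and those of STX18 overlap NSG1 likewise. The part of such reads in the values of these members was not tested.

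DKK3, a secreted protein in the WNT list (ENSG00000050165, chromosome 11, 11963106 to 12009769, minus strand), had 60.98, 61.3 and 58.7 CPM in C and 68.6, 72.5 and 73.5 in I. It had 38.4, 48.1 and 38.99 CPM in D and 56.5, 54.6 and 56.7 in DI. All I libraries lay above all C libraries and all DI above all D. The log2 fold change was 0.37 (SE 0.07, adjusted p = 0.00720, edgeR) for the mean, 0.29 (SE 0.09, adjusted p = 0.268) in I vs C and 0.46 (SE 0.09, adjusted p = 0.0323) in DI vs D. The last call was lost without any 1 library other than D2, with adjusted p from 0.0517 to 0.172, and by library size alone (0.0799).

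NSG1, which acts in the trafficking of receptors in neurons, had 107, 120.2 and 119.7 CPM in C and 78.5, 86.8 and 96.1 in I, against 69.97, 78.3 and 75.7 in D and 52.2, 60.8 and 61.6 in DI. It was lower in all I libraries than in all C libraries, and lower in all DI than in all D. The log2 fold change was −0.34 (SE 0.07, adjusted p = 0.0230, edgeR) for the mean, −0.36 (SE 0.10, adjusted p = 0.148) in I vs C and −0.32 (SE 0.10, adjusted p = 0.322) in DI vs D. With the block both single comparisons passed (adjusted p = 0.00539 and 0.0153). Leaving out single libraries gave adjusted p from 0.0205 to 0.0769 for the mean, and the call was lost without C2, C3, D2, D3, I1, I2 or DI1.

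The size of the doxycycline difference with and without IFNγ was compared by the interaction, although the rule asked for lower values in both arms and so favoured genes with a small interaction. Of 176 members 0 were called higher and 0 lower (edgeR, both directions 0% of all tested genes), with 0 members at an unadjusted p under 0.05, 1 with the block, and 0 called by DESeq2. The median of the interaction was −0.0031 on the log2 scale over members and −0.0055 over all genes. A p that misses the threshold does not show that the arms are alike. For the 3 members called for IFNγ the interaction was −0.08 (SE 0.16) for STARD4, 0.17 (SE 0.13) for DKK3 and 0.04 (SE 0.15) for NSG1, with adjusted p = 1 for each by edgeR.

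**Figure D5:**
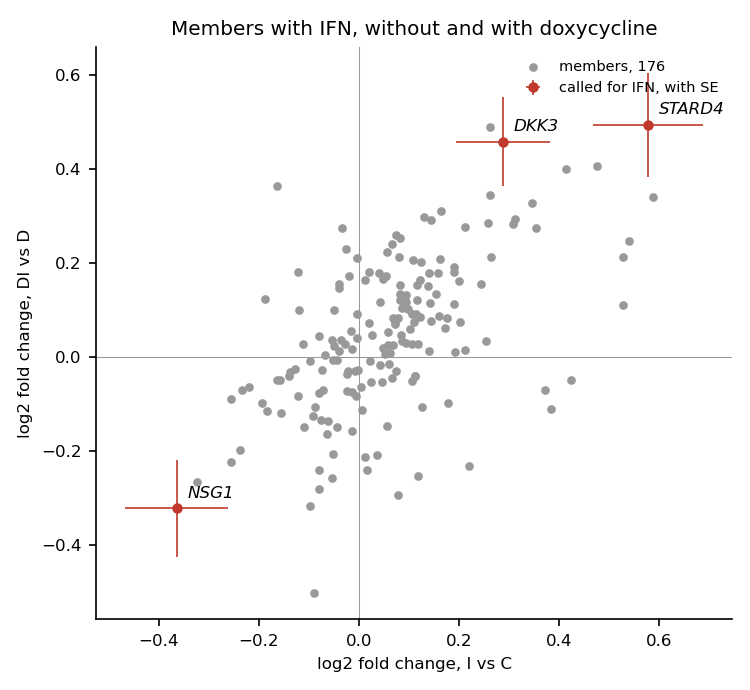
Log2 fold change with IFNγ in cells without doxycycline (I vs C, horizontal) and with it (DI vs D, vertical) for the 176 members, with the standard errors of the 3 called members. STARD4 (0.58 and 0.49) and DKK3 (0.29 and 0.46) lie above 0 in both arms and NSG1 (−0.36 and −0.32) below 0 in both, while some uncalled members lie as far from 0 in 1 arm.

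Promoters were searched as a second sequence feature, in 300 bases a gene (250 before the start, RefSeq, GRCh38.p14) for the 133 members and 10048 genes of at least 2 CPM that matched by symbol, on both strands. The CCAAT box was in 45.9% of members and 36.9% of genes, and the ETS site CCGGAAG in 15.04% and 19.9%. The GC box GGGCGG had 68.4% and 71.1%, the E-box CACGTG, a site of MYC proteins, 10.5% and 10.3%, and the gamma-activated site TTCNNNGAA 9.02% and 6.29%. The remaining 6 motifs differed by less than 3 percentage points. A match in these windows is a description and not a site in use.

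Members near the edges of the rule were as follows. SUMO2 (0.749) and CRIP2 (0.748) had the highest ratios within it, and ZNHIT1 (0.751) and TSPAN18 (0.754) the lowest outside it. KRT17 (2.03 CPM) and ANXA2P2 (2.78 CPM) had the lowest levels within it, and FHAD1 (1.75 CPM) and USH1C (1.19 CPM) fell below the minimum at ratios of 0.241 and 0.372. Relative to their mean level, ANXA2P2 and NSG1 had the smallest gaps between the groups (0.165% and 0.202%), and CPNE1 (0.715) and TOX-DT (0.745) overlapped, with gaps of −0.174 and −0.00454 CPM.

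The rule depended on the scaling. By library totals, 265 genes of at least 2 CPM (2.07%) lay wholly lower in D and DI and 718 (5.61%) wholly higher, so 27.0% of the genes that parted were lower. By TMM-scaled library sizes 483 were lower and 391 higher (55.3% lower), and the rule took 312 genes, all 176 members among them. Of the 136 genes gained, 128 had a 3′ UTR and 31.3% of these held ACTCATT. Among genes gained under other settings that share was 23.2% with the replicate block and ran from 8.11% without I1, below that of all genes, and 16.4% without DI2 to 54.5% without C3, where it rests on 11 genes.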

How the data were processed

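RNA of 12 SK-N-DZ libraries was sequenced on an Illumina instrument (paired ends of 150 bases, per the labels). The authors deposited whole-number counts per gene for 43769 genes, and the aligner, counter and genome build are not given in the sources used here. Other deposited tables hold the authors' DESeq2 fold changes and p-values, and these were not used, nor were 18 per-library columns that no label explains. All identifiers occur in GENCODE release 29 (GRCh38), which gave positions and, for 1 protein-coding transcript a gene (APPRIS principal, then longest 3′ UTR), the sequences.

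The rule used CPM by library total. Counts were scaled by TMM, filtered with filterByExpr (minimum count 10), which left 15828 genes, and tested in one edgeR quasi-likelihood model of 4 groups (edgeR 4.0.16, limma 3.58.1, R 4.3.3, Python 3.11.15), two-sided, with Benjamini-Hochberg adjustment and a threshold of 0.05. DESeq2 1.42.0 was an alternative. The members, lists and named genes were chosen with earlier results of these data known. Genes were named for the lowest ratio (12), the highest level (6), a call for IFNγ (6 in each direction) or the interaction, a place in a list (3 each) or at an edge of the rule, and members were added to these by function after their values were seen. Lists were written from general knowledge, and those not named in the text held 0 members. The heptamer scan and the model were tested on simulated data with planted changes.

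Libraries of a group differed by more than counting noise, with a chi-square per gene of 19.4 to 86.1. Replicate numbers, which come from the sample titles, paired the libraries: after group means were removed, the correlation was 0.338 to 0.804 in 18 same-numbered pairs and −0.628 to 0.143 in 36 others. At these depths 3 counts equal 0.138 to 0.182 CPM in a library. Intervals cover counting error only. The alternatives changed the scaling, filter, test, block, libraries and limits of the rule. Some items withheld for evaluation are not reported here.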

Additional observations from a re-analysis of the deposited data

How the results depend on the processing

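The module kept 137 to 216 genes when the limits on ratio or level were moved and 181 to 228 when single libraries were left out, the most without DI2, of which 166 to 175 were shared with the 176. It grew to 312 with TMM-scaled CPM and to 403 when the pairing of replicate numbers replaced the condition on all libraries (a replicate block: each doxycycline library below both same-numbered libraries without it), and both sets held all 176. The share of members with the heptamer was 34.4% in those 403 genes, 40.9% by TMM-scaled CPM, 39.8 to 50.9% with single libraries left out and 49.4% with the longest annotated 3′ UTR of each gene (14.1% of all genes), alternatives chosen after seeing the data.

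For the mean with IFNγ, the 3 calls became 14 with the replicate block, 8 by DESeq2 and 2 to 5 with single libraries left out (5 without D3). For I vs C, the 1 call became 5 with the block, 0 with only the libraries compared and 0 to 1 with single libraries left out. For DI vs D, the 1 call became 4 with the block, 2 by DESeq2, 0 by library size alone, without the filter or with only the libraries compared, and 0 to 1 with single libraries left out. The interaction had 0 called members under every alternative run. ARID1A in DI vs I passed with the block (−0.45, adjusted p = 0.0111) and by DESeq2 (−0.45, adjusted p = 0.0160), and ranged from −0.48 to −0.39 with single libraries left out. In D vs C it ranged from −0.21 to −0.04. The members that gained a call with the block are named in the report, 0 lost one, and the cause of these changes was not tested. Of 87 other values of named members, 60 kept their call and 27 lost it, and 0 changed direction.

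Limits remain. The groups have 3 libraries each, and no test of the doxycycline values that define the members is used as support. Replicate number 2 differed from 1 and 3 in the genes taken without it. The 3′ UTRs come from annotation, so the UTR ends used in these cells are unknown, and weakly counted members rest on few reads.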

Other observations

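Further members fell into groups that the report does not describe. In vesicle traffic, RAB11FIP2, an adaptor of recycling endosomes, had 30.4, 35.2 and 42.8 CPM in C and 35.6, 37.7 and 40.4 in I, against 14.01, 12.7 and 21.4 in D and 13.3, 11.8 and 20.5 in DI, at a ratio of 0.422, with replicate 3 the highest in each group. The Golgi GTPase RAB30 had a ratio of 0.534, the endosomal sorting protein STAM2 0.672, the organelle biogenesis subunit BLOC1S6 0.694 and the cargo receptor partner MCFD2 0.626. MCFD2 holds ACTCATT in the 3′ UTR, and RAB11FIP2, RAB30, STAM2 and BLOC1S6 hold the 8-base match. Of 4 picked members that build or move along cilia, TTC30B (0.62) holds the 8-base match. KIF3B (0.664) and SCLT1 (0.644) hold ACTCATT, and IFT88 (0.737) holds no core. The ciliary protein CFAP95 (0.262) holds no core either, nor does VPS37B (0.611), also of vesicle traffic. These members were picked by hand and are not full lists, so the counts do not describe vesicle traffic or cilia. Among all members with a 3′ UTR read, 20.8% held the 8-base match and 23.2% no core.

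Regulators of the actin cytoskeleton were also present. TAGLN2, an actin-binding protein, had 209.7, 240.5 and 262 CPM in C and 196, 258 and 278 in I, against 102, 124 and 96.6 in D and 109.6, 139.5 and 95.1 in DI, at a ratio of 0.462, and no doxycycline library came near the others. The CDC42 effector CDC42SE2 had 0.528, the adhesion protein PARVA 0.467, the formin DAAM1 0.625, and the GTPases RHOC and RAC3 0.62 and 0.715. These genes were chosen after their values were seen, and their doxycycline values are a description with no test.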
